A study of Mus musculus with 4 samples.

Results

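T cell anergy is a state in which a T cell that met antigen without costimulation stays alive but no longer answers, and the genes described here are 9 that establish or mark it. They were Nrn1, Nt5e, Egr3, Cblb, Rnf128, Dgka, Dgkz, Itch and Ndfip1, taken by gene symbol from the array's probe annotation, which gave 22 of 45281 probes, and 9 of the 19057 genes with a probe. The set was selected on the dKO and WT levels of Nrn1, which was higher in the knockout cells, so differences between the genotypes in these 9 genes are given as a description, and nothing is drawn for them from the fit across all genes. Illumina bead arrays gave their expression in T cells sorted as CD4+CD62L-CD44+, an effector memory phenotype, from spleen and lymph nodes. The 2 dKO arrays came from C57BL/6 mice that lacked MEKK2 in all cells and carried a floxed and a null allele of MEKK3, with Cre under the T lineage promoter of Lck. The 2 WT arrays came from C57BL/6 wild type mice. The labels give no age and do not tie each array to its own mouse, so that p-values rest on a spread that may be technical. Per its title, the study asks how these kinases act on helper T cell differentiation driven by TGF-β.

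Anergy is built in layers. The calcium-driven transcription factors Egr2 and Egr3 promote the programme. Its effectors include the ubiquitin ligases Cbl-b (Cblb), GRAIL (Rnf128) and Itch, which remove signalling proteins, and the diacylglycerol kinases Dgka and Dgkz, which consume the lipid second messenger that activates Ras and protein kinase C. Nrn1 encodes neuritin, a surface protein anchored by a lipid tail that is high in anergic, regulatory and follicular regulatory T cells, and Nt5e encodes CD73, the surface enzyme that turns AMP into adenosine.

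The deposited intensities of the dKO and the WT array of a replicate number shared 1 distribution (the sorted values of number 1 agreed within 0.0846 and those of number 2 within 0.0793), so deposited values were compared within a number. For differences over both numbers the intensities, with a floor of 16, were put on the log2 scale and quantile normalization was run on the 4 arrays. Of the 22 probes, 16 were brighter than the floor on some array, 15 of them on all 4, and 6 stayed at the floor throughout. Between 12763 and 13218 probes of an array exceeded the floor. A probe at the floor on all arrays gives no measured level, since low RNA and a weak probe cannot be told apart. The targeted Map3k3, which encodes MEKK3, had 204 and 246 units in dKO 1 and dKO 2, against 311 and 387 in WT 1 and WT 2, ratios of 0.656 and 0.636. Neither Map3k2 probe exceeded the floor. Where these probes lie relative to the deleted parts is not known here, so they do not check the labels. Xist, which marks an inactive X chromosome, was at least 26.1-fold lower in dKO cells and the Y-linked Eif2s3y at least 18.5-fold higher. The dKO arrays thus carried male and the WT arrays female transcripts, and genotype and sex cannot be told apart here.

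Across the genome, limma's lmFit and eBayes called 0 of 10413 features higher in dKO cells and 0 lower (0% in each direction). Without adjustment, 182 higher and 175 lower features had p under 0.05, or 3.43%. With a replicate block, limma called 0.096% of features higher (10) and 0.048% lower (5). Of these 15, the globins Hbb-bs, Hbb-bt and Hba-a1 and the sex-linked Xist and Eif2s3y were 5. Nrn1 was higher in dKO cells by a log2 difference of 1.61, and none of the other 7 genes above the floor was 1.5-fold apart by its brightest probe. A difference of at least 1.5-fold in either direction was seen for 8.35% of all features. Of those 8 genes, Nrn1 and Itch were higher in dKO cells in both replicate numbers, against 27.6% of all features. Egr3, Cblb, Dgka and Dgkz were lower in both, against 26.6%, and Nt5e and Ndfip1 had opposite signs in the numbers. Their median log2 difference was −0.16 (−0.14 in replicate number 1 and −0.11 in number 2), beside 0.01 over all features. That median was 0.01 without dKO 2 and 0.05 without WT 1, so its sign rests on single arrays. On the normalized scale the groups did not overlap for 2 genes higher in dKO, where 12.7% of all features lay, nor for 1 gene lower, where 13.5% lay. Since these genes were chosen with this contrast in view, nothing is read from those shares.

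**Figure D1:**
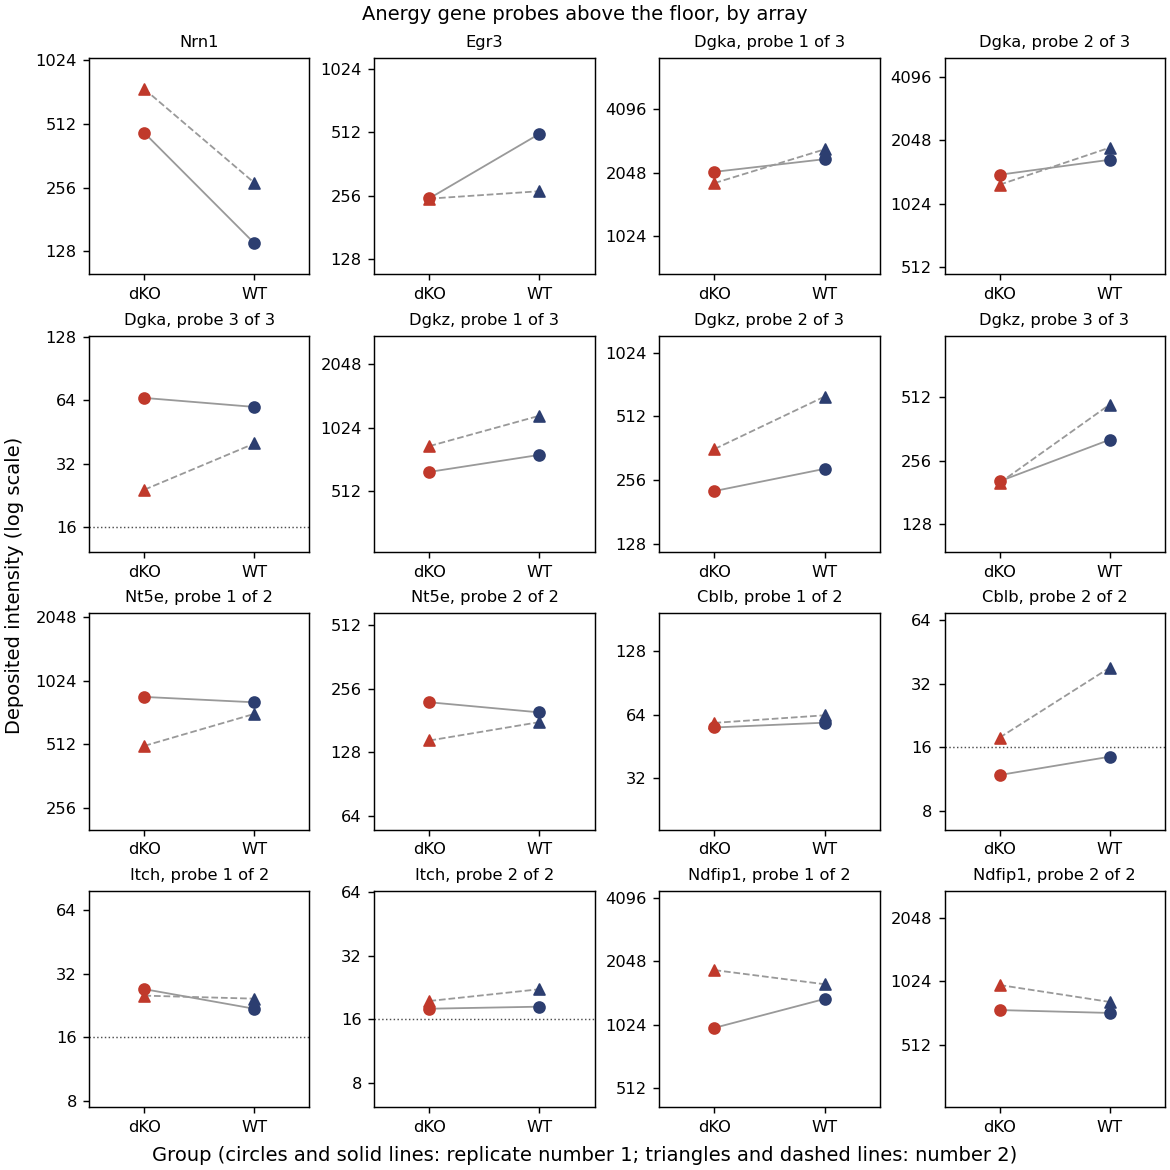
Deposited intensity (vertical log axes, arbitrary units) of the 16 anergy gene probes above the floor of 16 (dotted line) on at least 1 array, in dKO (left) and WT (right) cells. Each line joins the arrays of 1 replicate number. Nrn1 lies at 464 and 749 in dKO, above 139 and 269 in WT, while all 3 Dgkz probes are lower in dKO than in WT in both numbers.

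Nrn1 had a single probe, with 464 and 749 units in dKO 1 and dKO 2, and 139 and 269 units in WT 1 and WT 2. The groups did not overlap, with the lower dKO array above the higher WT array, and on both genotypes number 2 was the brighter. The dKO over WT ratio was 3.33 in number 1 and 2.78 in number 2. On the normalized log2 scale Nrn1 averaged 9.20 ± 0.17 in dKO cells against 7.59 ± 0.42 in WT cells (SD, n = 2 each), a 3.06-fold difference. Leaving out any array gave log2 differences of 1.33 (without WT 1) to 1.89 (without WT 2). Among the 10413 features Nrn1 ranked 33 from the top by its mean difference, 28 in number 1 and 144 in number 2, and 17 other features were at least as high in both numbers. Because the set was chosen on this difference of Nrn1, nothing is read from these ranks. The 5 named genes whose values over the 4 arrays, centred on the gene's mean, lay closest to those of Nrn1 were Mmp14, Lgals3, Rab26, Spint1 and Tgm2, out of 6889 above the floor on all arrays. Their root mean square distances from Nrn1 ran from 0.151 to 0.251 log2 units, and their log2 differences from 1.36 for Mmp14 to 1.65 for Lgals3. With 4 arrays such a likeness is a description only.

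**Figure D2:**
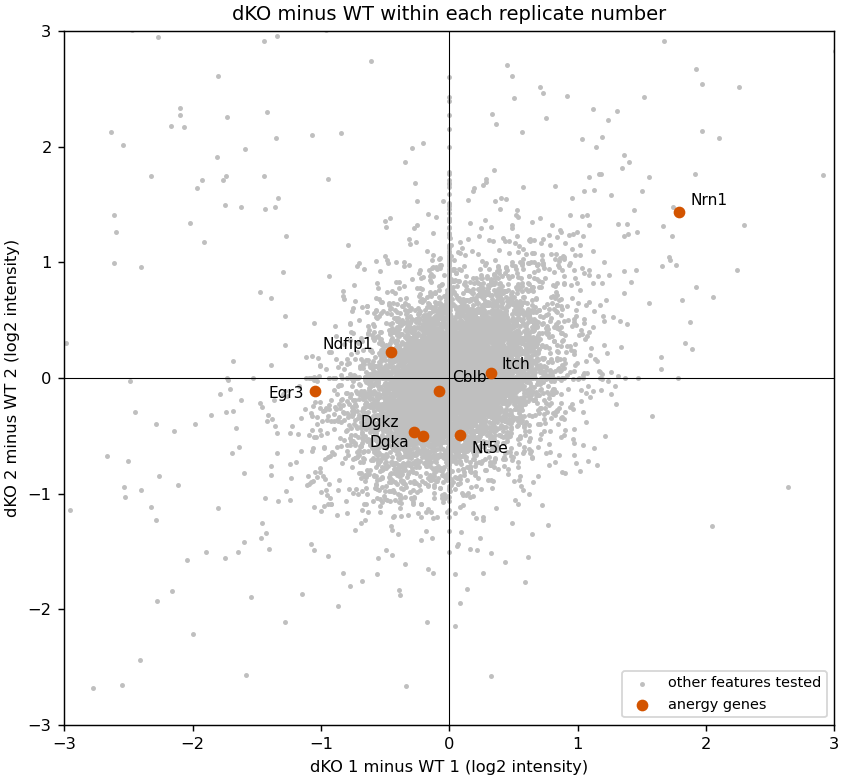
Log2 difference of dKO 1 from WT 1 (horizontal axis) and of dKO 2 from WT 2 (vertical axis) for the 10413 features tested (grey) and the 8 anergy genes above the floor (orange). Nrn1, on which the set was chosen, lies at 1.79 and 1.43, and 17 other features were at least as high in both numbers. The other 7 genes lie within the cloud of features, and 42 features lie outside the plotted range of −3 to 3.

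Nrn1 is also a gene of regulatory and follicular T cells. Foxp3, the regulatory T cell factor, averaged 9.33 ± 0.14 in dKO cells and 9.26 ± 0.05 in WT cells (log2, SD, n = 2 each), and the summed normalized intensity of 12 regulatory T cell markers overlapped, with 5489 and 7931 in dKO against 5865 and 7067 in WT. Of the 14 markers listed, all 12 with a probe exceeded the floor. None of them was higher in dKO without overlap (12.7% of all features were) and 2 were lower (13.5% of all features were). These were Gpr83 and Izumo1r, which encodes folate receptor 4, a surface marker of regulatory and of anergic CD4+ cells, with log2 differences of −1.26 and −0.97 (adjusted p = 0.9997 for each by limma). Of 10 follicular helper markers with a probe, 7 exceeded the floor, 0 were higher without overlap and 1 was lower, with sums of 1858 and 1298 in dKO against 1518 and 1697 in WT. Pdcd1, Tox2 and Ascl2 stayed at the floor on all arrays.

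Markers of other cell types stood apart between the groups for some lists. Over all features, 12.7% were higher and 13.5% lower in dKO without overlap, and the counts below stand beside these shares. Of 6 erythroid genes with a probe 4 exceeded the floor, and their sum was 933 and 3557 in dKO against 75.6 and 135 in WT, with 3 higher in dKO without overlap, Hbb-bs, Hbb-bt and Hba-a1, called with the replicate block but not without it, and Alas2 and Klf1 at the floor. Of 14 myeloid and dendritic markers 12 exceeded it, with sums of 1313 and 2543 in dKO against 1436 and 1313 in WT. Without overlap 4 were higher, Adgre1, C1qb, C1qc and Csf1r, with log2 differences of 1.73, 1.58, 1.31 and 1.00. Clec9a, at the floor on each dKO array, was lower without overlap, by at least 1.58-fold (adjusted p = 0.9997 by limma for each of these genes). Itgam and Itgax stayed at the floor. Of 12 CD8 T and NK cell markers 8 exceeded it, 6 of them lower in dKO without overlap, with sums of 2474 and 2952 in dKO against 4676 and 3983 in WT. These 6 were Klrd1, Ctsw and Nkg7, at −1.19, −1.12 and −0.61 (log2), and Klrb1c, Klre1 and Klrk1, at the floor on each dKO array. Prf1 and Cd8b1 overlapped, Cd8b1 with 691 and 512 units in dKO against 736 and 602 in WT. Cd8a, Ncr1, Gzmb and Eomes stayed at the floor. Of 8 B cell markers 4 exceeded it, with sums of 102 and 309 in dKO against 186 and 173 in WT, and Ms4a1, Pax5, Ebf1 and Fcer2a at the floor. Of 4 γδ T cell markers 3 exceeded it, with sums of 201 and 150 in dKO against 222 and 185 in WT. These close sums hold opposite differences without overlap, Trgv4 lower at −2.90 and Cd163l1 higher at 2.34 on the log2 scale (adjusted p = 0.903 and 0.9997 by limma). The 6 CD4 T cell markers with a probe, Cd4 and the CD3 chains Cd3d, Cd3e and Cd3g among them, were above the floor on all arrays, with sums of 15080 and 11780 in dKO against 13390 and 14030 in WT. The part of these cells, and of sex, in the values of Nrn1 and of the other anergy genes was not tested, and in sorted bulk RNA more cells of a type and more RNA per cell cannot be told apart.

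**Figure D3:**
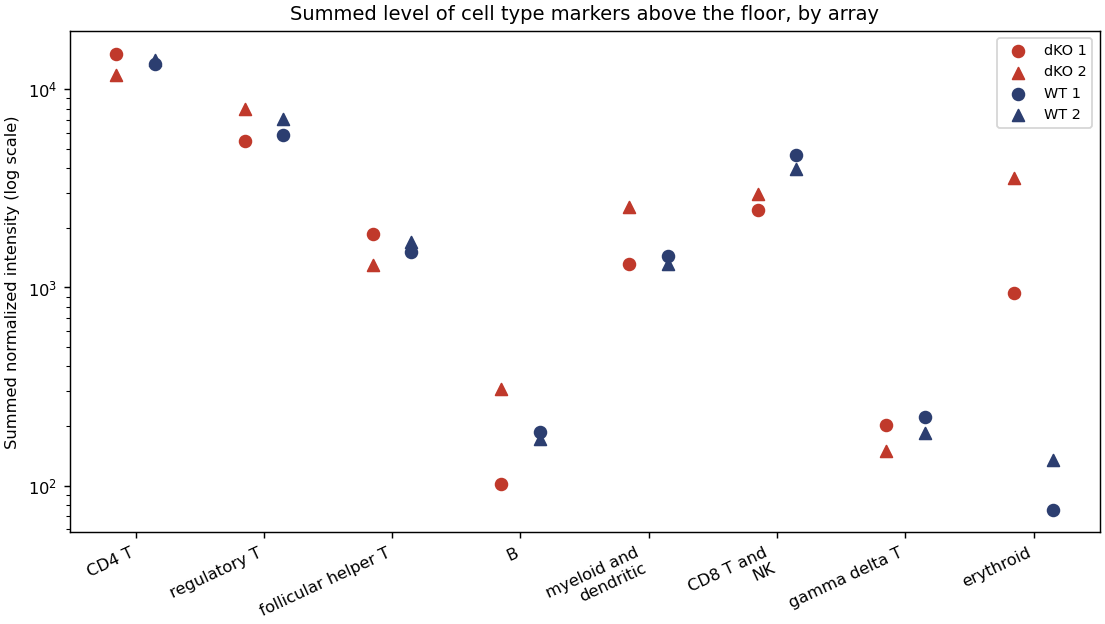
Summed normalized intensity (vertical log axis) of the markers of 8 cell types that exceeded the floor, for dKO (red, left) and WT (blue, right) arrays, with circles for replicate number 1 and triangles for number 2. The erythroid sum is higher on both dKO arrays (933 and 3557) than on the WT arrays (75.6 and 135), the CD8 T and NK sum is lower (2474 and 2952 against 4676 and 3983), and the regulatory T cell sums overlap.

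Egr3, a zinc finger factor that drives the anergy programme, was lower in dKO cells in both numbers, but mainly in number 1. Its probe above the floor had 249 and 248 units in dKO 1 and dKO 2, against 503 and 269 units in WT 1 and WT 2. The dKO arrays were nearly equal and WT 1 stood above the rest, so that the dKO over WT ratio was 0.495 in number 1 and 0.922 in number 2. On the log2 scale Egr3 differed by −0.58 (7.96 ± 0.27 in dKO cells and 8.54 ± 0.93 in WT cells, SD, n = 2 each), smaller than the SD of the WT arrays, with overlap on the normalized scale. Without WT 1 it was 0.08. The other Egr3 probe stayed at the floor. Egr2, the partner of Egr3 in anergy, was also lower, at 8.11 and 7.61 on dKO 1 and dKO 2 against 8.29 and 8.25 on WT 1 and WT 2 (log2), a difference of −0.41 (adjusted p = 0.9997 by limma). Egr1, an immediate early gene, overlapped between the groups at a difference of −0.01, as did Egr4, at the floor on 3 of 4 arrays, and the EGR corepressors Nab1 and Nab2, at 0.16 and −0.00.

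The diacylglycerol kinases Dgkz and Dgka were lower in dKO cells in both numbers on their bright probes. The first Dgkz probe had 633 and 839 units in dKO 1 and dKO 2, against 762 and 1168 units in WT 1 and WT 2, ratios of 0.831 and 0.718. The second had 227 and 359 units in dKO 1 and dKO 2, against 289 and 636 units in WT 1 and WT 2, ratios of 0.785 and 0.564. The third had 205 and 201 units in dKO 1 and dKO 2, against 323 and 473 units in WT 1 and WT 2, ratios of 0.635 and 0.426. All 3 probes were thus lower in dKO in both numbers, with log2 differences of −0.37, −0.58 and −0.94 in the same order, and on the normalized scale none of them overlapped. In deposited units the groups overlapped for the first and the second, with dKO 2 above WT 1, but not for the third. The annotation gives all 3 the same transcript, so the size of the Dgkz difference depends on the probe. The first probe, taken for the gene, averaged 9.51 ± 0.04 in dKO cells and 9.88 ± 0.10 in WT cells (SD, n = 2 each), and its log2 difference stayed between −0.45 and −0.30 with any array left out. The other 2 Dgkz probes stayed at the floor.

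Dgka had 2065 and 1827 units in dKO 1 and dKO 2, against 2371 and 2639 units in WT 1 and WT 2, ratios of 0.871 and 0.692. Both dKO arrays were below both WT arrays in deposited units, but the groups overlapped after normalization over all 4 arrays. The log2 difference was −0.35 (10.94 ± 0.51 in dKO cells and 11.29 ± 0.30 in WT cells, SD, n = 2 each), less than the SD within dKO, and 0.01 without dKO 2. A second probe followed, with a difference of −0.41 and ratios of 0.849 and 0.668, while the third and dimmest had opposite signs, with ratios of 1.10 and 0.604.

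EGR factors recognise the GC-rich element GCGNGGGCG, so the stretches before the starts of these lipid kinases are shown, from RefSeq on GRCm38.p6. Each has the 250 bases before a start, 5′ to 3′ on the gene's strand. Capitals mark the GC box GGGCGG or its reverse complement CCGCCC, and the letters of this box overlap part of the EGR element. The first is the outermost Dgkz window of the table, at chr2:91963564-91963813, and the others are the 2 outermost Dgka windows, at chr10:128745085-128745334 and chr10:128744077-128744326, all on the minus strand.
Dgkz: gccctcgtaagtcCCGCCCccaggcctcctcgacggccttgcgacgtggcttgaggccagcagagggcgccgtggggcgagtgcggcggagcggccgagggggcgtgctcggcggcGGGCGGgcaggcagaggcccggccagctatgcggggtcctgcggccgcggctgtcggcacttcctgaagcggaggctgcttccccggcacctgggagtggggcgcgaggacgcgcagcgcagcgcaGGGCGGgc
Dgka outer: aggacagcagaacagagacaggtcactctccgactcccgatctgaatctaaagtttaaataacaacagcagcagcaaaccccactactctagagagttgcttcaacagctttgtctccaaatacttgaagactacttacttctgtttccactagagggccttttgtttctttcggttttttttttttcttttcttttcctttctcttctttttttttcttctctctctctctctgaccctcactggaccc
Dgka second: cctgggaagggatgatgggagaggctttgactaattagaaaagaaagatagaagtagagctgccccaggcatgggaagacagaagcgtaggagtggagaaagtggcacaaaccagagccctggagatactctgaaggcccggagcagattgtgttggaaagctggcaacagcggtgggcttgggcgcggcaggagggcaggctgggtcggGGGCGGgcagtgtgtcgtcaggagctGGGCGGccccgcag
The Dgkz window is 77.6% G and C and holds 3 GC boxes, the outer Dgka window is 41.2% and holds 0, and the second Dgka window is 60% and holds 2. The search covered 9 windows of 5 of the anergy genes, Dgkz, Nt5e, Dgka, Cblb and Rnf128. Nrn1, Egr3 and Itch had no window, and Ndfip1 was left out of the search, so nothing is said of it. None of the 9 windows held GCGNGGGCG on either strand, while 4.7% of the 32851 windows of all genes did. The GC box stood in 32.7% of those windows. A missing match says only that these letters are not in this stretch, and which start these cells use is not known from the array.

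Around the lipid kinases, 30 further genes of diacylglycerol signalling were listed, of which 24 had a probe and 18 exceeded the floor. Limma called 0 higher and 0 lower, while 1 was higher and 6 were lower in dKO without overlap, beside 12.7% and 13.5% of all features, with a median log2 difference of −0.12. The lower ones with the largest differences were Rasgrp2, a calcium-regulated Rap1 exchange factor, at −0.66, the protein kinase C gene Prkca at −0.40, the Ras GTPase activator Rasa1 at −0.38, the protein kinase D gene Prkd3 at −0.30 and the Ras regulator Rasal3 at −0.28 (adjusted p = 0.9997 for each by limma). Rasgrp1, the diacylglycerol-driven Ras activator of T cells, overlapped at 0.20, as did Dgkq at −0.05. Of the other kinases of the family, Dgke exceeded the floor on 1 array, and Dgkh, Dgki and Dgkk stayed at it.

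Among the ubiquitin ligases, no gene differed by as much as 1.5-fold on its brightest probe. Cblb, a RING ligase that raises the threshold of T cell receptor signalling, had 55.8 and 58.7 units in dKO 1 and dKO 2, against 58.8 and 63.7 units in WT 1 and WT 2, ratios of 0.949 and 0.921. The 4 values lay close together, and the log2 difference of −0.10 was smaller than the SDs of 0.14 in dKO and 0.11 in WT (n = 2 each) and 0.00 without dKO 2. Its second probe exceeded the floor only in number 2, with 17.8 units in dKO against 38.1 in WT, and the third stayed at the floor. Rnf128, the transmembrane ligase GRAIL, on the X chromosome, was at the floor with both probes on all 4 arrays, the highest of its 8 values being 7.93 units, so it has no measured level in either genotype.

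Itch, a HECT ligase that marks JunB for removal, was dim, with 27.1 and 25.2 units in dKO 1 and dKO 2, against 21.9 and 24.4 units in WT 1 and WT 2. The dKO arrays were slightly above the WT arrays, at a log2 difference of 0.19, but its other probe was lower in dKO in both numbers, with 18.0 and 19.5 units in dKO 1 and dKO 2, against 18.4 and 22.2 units in WT 1 and WT 2, and a difference of −0.10. The probes of Itch thus had opposite signs, both close to the floor. Ndfip1, the membrane adaptor that activates Itch, had 990 and 1858 units in dKO 1 and dKO 2, against 1356 and 1593 units in WT 1 and WT 2. Ratios of 0.730 in number 1 and 1.17 in number 2 point in opposite directions, and its second probe, at 1.03 and 1.20, had a log2 difference of 0.16 where the first had −0.12. No direction can be given for Ndfip1 from these arrays.

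Of 30 further ligases, partners and adaptors, 28 had a probe and 20 exceeded the floor. Limma called 0 in either direction, and 4 of the 20 were higher and 3 lower in dKO without overlap, near the 12.7% and 13.5% of all features, with a median of 0.12. Ndfip2, the paralogue of Ndfip1, was higher, at 5.20 ± 0.12 in dKO cells and 4.75 ± 0.20 in WT cells (log2, SD, n = 2 each), a difference of 0.45, and so was the ubiquitin-conjugating enzyme Ube2l3 at 0.29. The arrestin-like adaptor Arrdc1, the HECT ligase Nedd4l and the ligase Rnf41 were lower at −0.49, −0.40 and −0.34 (adjusted p = 0.9997 for all 5 by limma). Of the HECT ligases related to Itch, Wwp1 and Wwp2 overlapped at −0.46 and 0.09, and Nedd4, Smurf1, Hecw1 and Hecw2 stayed at the floor, as did Cblc, while Cbl exceeded it on 1 array. Of 15 substrates and interaction partners of the ligases with a probe, 12 exceeded the floor, 0 were higher and 2 lower in dKO without overlap, beside 12.7% and 13.5% of all features. These 2 were Junb at −0.49 and Pik3r1, a regulatory subunit of PI3 kinase and a Cbl-b substrate, at −0.48 (adjusted p = 0.9997 for each by limma).

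Nt5e was bright and had no common direction. Its first probe had 859 and 504 units in dKO 1 and dKO 2, against 810 and 714 units in WT 1 and WT 2, with dKO 2 below the other arrays. The ratio was 1.06 in number 1 and 0.705 in number 2, and the log2 difference of −0.20 was smaller than the SD of 0.86 in dKO and of 0.46 in WT (n = 2 each), and became 0.41 without dKO 2 and 0.12 without WT 1. The second probe gave ratios of 1.12 and 0.818. Of 9 other adenosine pathway genes with a probe, 5 exceeded the floor and limma called 0. Ada, the deaminase that removes adenosine, reached the floor value on each dKO array and was at least 1.40-fold lower (adjusted p = 0.9997 by limma), the adenosine kinase gene Adk differed by 0.01, the nucleoside transporter Slc29a1 by −0.34 and Dpp4, the ADA-binding surface protease CD26, by −0.07. Entpd1, or CD39, which supplies the AMP that CD73 uses, and the receptor Adora3 stayed at the floor, and the receptors Adora1, Adora2a and Adora2b were not analysed here.

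Other genes tied to anergy and exhaustion numbered 30, with 28 on the array and 21 above the floor. Limma called 0 in either direction, and 2 were higher and 6 lower in dKO without overlap, beside 12.7% and 13.5% of all features, with a median of −0.02 (0.12 in number 1 and −0.23 in number 2). Among the 8 without overlap the largest differences were those of Izumo1r, given above, of Dtx1, the ligase Deltex1 that NFAT induces in anergic cells, at −0.55, of the antiproliferative gene Tob2 at −0.52, of Egr2 and of the inhibitory receptor Tigit at −0.39 (adjusted p = 0.9997 for each by limma). Ikzf1, Btla and Klf2 were near 0, at −0.01, −0.02 and 0.01, and Nr4a1, Nr4a3, Prdm1, Cd5 and Pdcd1 were among the 7 at the floor. Over all 6 lists 122 genes besides the 9 were named, 79 were above the floor, and 18 of them were lower and 7 higher in dKO without overlap, 22.8% and 8.86% beside 13.5% and 12.7% of all features. Their log2 differences ran from −0.97 to 0.49, with 2 at an unadjusted p under 0.05 by limma. The set was chosen on Nrn1, so nothing is read from its 1.61 lying outside that range. The lists were chosen with earlier results of these data known, so nothing is read from the shares either.

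**Figure D4:**
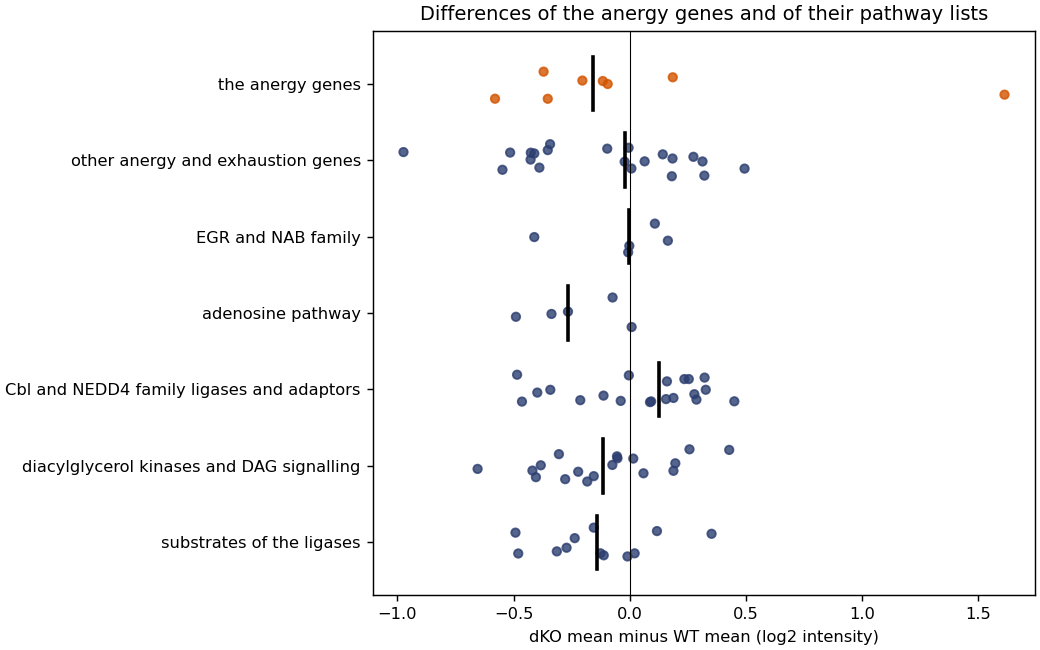
Log2 difference of the dKO mean from the WT mean for each gene above the floor (points) in the anergy genes (orange) and in 6 lists around them (blue), with the median of each list as a black bar. Nrn1, on which the set was chosen, is the point at 1.61, and the medians lie between −0.27 and 0.12.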

How the data were processed

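RNA of 2 dKO and 2 WT samples was measured on Illumina bead arrays, and groups and replicate numbers came from the sample titles. The deposited values are linear probe intensities, background-subtracted by the authors as values below 0 show. Their normalization is not given in the sources used, and from the values it ran within each replicate number. The table of non-normalized signals was left out, since the names of its 4 signal columns could be matched to no label. A floor of 16 was set, log2 taken and quantile normalization applied over the arrays. A probe was kept above the floor on at least 1 array (14673 of 45281), and the brightest kept probe stood for a gene, giving 8285 genes and 2128 unnamed probes.

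Symbols came from GEO's platform annotation (1 symbol for 34885 probes, several for 18, none for 10378). Entrez IDs matched 34807 of these to RefSeq, with 0 symbols changed. The test was that of limma 3.58.1 under R 4.3.3, with lmFit and a trended eBayes, two-sided, Benjamini-Hochberg adjusted, threshold 0.05, genotype alone, 2 residual degrees of freedom. A run on simulated data checked only that the fit came near the differences put in, and it set no limit on calls. A gene at the floor in a group has a bound, the mean of the other group over the floor. The members and lists were chosen with earlier results of these data known. Named were the 9 genes, the targets, marker and sex-linked genes, family members, and up to 5 genes a list with the largest differences without overlap.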

Additional observations from a re-analysis of the deposited data

How the results depend on the processing

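Of 17 alternatives, 15 bear on the values of the genes. Several, the replicate block among them, gave the main values again, so not all of the 15 are separate checks. Of 119 gene values under them, 8 had the other sign, for Ndfip1 (3), Nt5e (2), Egr3, Cblb and Dgka (1 each), all but 1 with an array left out (the other was Ndfip1 at 0.02 with the mean of probes), and 0 for Nrn1, Dgkz and Itch. Nrn1 kept a log2 difference of 1.53 or more with all arrays in and of 1.33 to 1.89 with an array left out. The median of the 8 genes was −0.20 with a floor of 32 (7 genes, without Itch), −0.22 with the mean of probes, and −0.299 to 0.051 with an array left out. The causes were not tested. Limma without a replicate block called 3 higher and 1 lower with log2(value + 16), 1 higher with medians equalized, 1 higher with robust eBayes, and 57 higher and 39 lower with no filter, where most values are tied at the floor. Other settings without a block, arrays left out included (0 to 0), called 0. With a replicate block it called 10 higher and 5 lower, or 19 and 12 on the deposited values. In this balanced layout a block cannot change a difference of group means, so the 8 genes' differences were the same with it. The genes of the 6 lists had 0 calls in every setting with all arrays in. Same-numbered arrays deviated together (correlation 0.472), and the labels name no pairing. Probes near the floor, those of Itch and the second of Cblb, are limited by signal over background.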
